A study of Mus musculus with 9 samples.

Results

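Chromatin accessibility of cells close to the end of reprogramming, the SSEA-1-positive cells of day 12 (D12S+), was compared with that of iPSCs by ATAC-Seq, an assay in which a transposase inserts adapters into open chromatin. Peaks of a library that overlapped were merged, on chromosomes 1 to 19, into 55759 regions in D12S+ and 60527 in iPSCs. Regions of both libraries that shared at least 1 bp were common, and the rest were called in D12S+ only (open at day 12 and no longer called in iPSCs) or in iPSCs only (still to be gained). The union held 81291 regions of the 204843 that the 7 time-course libraries covered together, of which 32103 (39.5%) were common, 22453 (27.6%) were D12S+ only and 26735 (32.9%) were iPSCs only. The comparison addresses which openings of the final state were still missing at day 12 and which openings of the earlier cells remained.

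The starting cells were mouse embryonic fibroblasts (MEFs) of E13.5 embryos, in which an IRES-EGFP cassette follows the stop codon of endogenous Oct4. They were infected with pMXs retroviruses carrying Sox2, Klf4, Oct4 and c-Myc and kept without feeder cells, so that all groups after day 0 share the 4 factors. The labels give reprogramming a medium with knockout serum replacement, LIF, ascorbic acid, bFGF and CHIR99021 and name a feeder-free medium for iPSCs, whereas the methods of the study also allow serum or knockout serum replacement media with LIF for both. Whether D12S+ and iPSCs had the same medium is thus not settled, and a difference of medium and one of cell state cannot be told apart here. D12S+ cells were collected 12 days after induction and sorted for SSEA-1, and iPSCs are labelled fully reprogrammed and were not sorted. The other groups used here were D0 (MEFs), D3 (unsorted), D6T- and D9T- (sorted for absence of Thy-1) and D16S+ (day 16, sorted for SSEA-1). Each condition had 1 library, the labels give neither the number of cultures pooled nor the iPSC clone, and no difference between conditions could be tested, so all values below describe these libraries and intervals cover counting error or the sampling of regions only. In bulk material, a region open in fewer cells and a region less open in each cell cannot be told apart.

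Differentiated cells carry distant enhancers that are opened by transcription factors such as AP-1, a dimer of Fos and Jun proteins that binds TGA-TCA elements and is active in fibroblasts. Pluripotent cells use another set, bound by Oct4, Sox2, Klf proteins, Nanog and the orphan nuclear receptor Esrrb, whose site is CAAGGTCA. Naive pluripotency factors such as Esrrb, Zfp42, Tfcp2l1 and Nr5a2 are usually engaged late in reprogramming. SSEA-1 is a carbohydrate of the cell surface made by fucosyltransferases and marks cells on the way to pluripotency, whereas Thy-1 marks fibroblasts.

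The sequences that follow show single-copy regions of each kind, as the 150 bases around the summit on the plus strand of mm9. Capitals mark every match, on either strand, to one of 10 short motifs described below. The first 4 are the strongest distal D12S+ only regions that held the AP-1 motif TGANTCA, were called at D0, D3 and D6T- and were no longer called at D16S+. The one at chr1:180972207-180972356 lies in an intron of Smyd3, a lysine methyltransferase. Those at chr12:120053144-120053293 (31.6 kb from the start of Sp8), chr9:26326410-26326559 (215 kb from B3gat1) and chr8:70681223-70681372 (95.1 kb from Psd3) are intergenic.
Smyd3 intron: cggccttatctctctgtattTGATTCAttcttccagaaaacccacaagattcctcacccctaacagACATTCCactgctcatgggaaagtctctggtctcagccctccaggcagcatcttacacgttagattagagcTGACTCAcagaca
Sp8 side: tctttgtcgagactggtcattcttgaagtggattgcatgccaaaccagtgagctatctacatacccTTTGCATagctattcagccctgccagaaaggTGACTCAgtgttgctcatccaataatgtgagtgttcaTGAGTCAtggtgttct
B3gat1 side: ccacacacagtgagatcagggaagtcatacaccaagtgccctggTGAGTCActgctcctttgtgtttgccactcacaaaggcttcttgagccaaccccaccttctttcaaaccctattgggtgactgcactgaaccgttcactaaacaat
Psd3 side: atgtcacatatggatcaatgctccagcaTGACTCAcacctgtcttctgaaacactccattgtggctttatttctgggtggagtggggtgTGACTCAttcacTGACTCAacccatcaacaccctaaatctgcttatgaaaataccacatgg

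The highest pileup, the number of overlapping extended tags, at the Smyd3 region was 74 in D0, 124 in D3, 187 in D6T-, 40 in D9T- and 49 in D12S+, and the region was not called in D16S+ or iPSCs. At the Sp8 side it was 80, 107, 159, 58 and 48 in the same order, and at the Psd3 side, where the AP-1 motif occurred 3 times, 53, 97, 153, 42 and 45. At the B3gat1 side it was 51, 94, 163, 54 and 47. All 4 were highest at D6T- and uncalled in both late libraries that followed D12S+. Tags, here and below, are counts before scaling for depth, so their order between libraries can differ from that of scaled values.

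The next sequences are the strongest distal iPSCs only regions that held the Esrrb motif CAAGGTCA, followed by the 2 strongest distal common regions with that motif that were at least 2-fold higher in iPSCs. They lie in introns of Abcc4, a membrane transporter (chr14:119096227-119096376), of Mapt, which encodes the microtubule protein tau (chr11:104157071-104157220), and of the non-coding gene A230004M16Rik (chr11:41639890-41640039), or 28.3 kb from the start of Fads2, a fatty acid desaturase (chr19:10204231-10204380). The 2 common regions lie in an intron of Immp2l (chr12:42830905-42831054) and between genes (chr2:51322817-51322966).
Abcc4 intron: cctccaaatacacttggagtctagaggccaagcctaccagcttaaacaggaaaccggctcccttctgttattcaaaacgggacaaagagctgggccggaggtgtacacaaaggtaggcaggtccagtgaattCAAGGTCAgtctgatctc
Mapt intron: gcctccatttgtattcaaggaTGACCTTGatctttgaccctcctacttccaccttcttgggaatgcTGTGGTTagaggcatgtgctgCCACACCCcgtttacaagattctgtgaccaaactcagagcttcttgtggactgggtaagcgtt
A230004M16Rik intron: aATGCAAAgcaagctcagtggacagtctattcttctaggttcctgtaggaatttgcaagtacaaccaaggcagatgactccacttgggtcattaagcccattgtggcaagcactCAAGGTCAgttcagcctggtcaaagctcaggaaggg
Fads2 side: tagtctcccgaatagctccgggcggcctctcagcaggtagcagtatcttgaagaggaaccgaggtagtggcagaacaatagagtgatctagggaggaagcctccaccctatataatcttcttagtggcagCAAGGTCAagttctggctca
Immp2l intron: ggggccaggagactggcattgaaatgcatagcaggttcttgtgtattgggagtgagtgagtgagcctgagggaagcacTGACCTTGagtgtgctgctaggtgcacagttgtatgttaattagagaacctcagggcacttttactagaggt
Intergenic, chromosome 2: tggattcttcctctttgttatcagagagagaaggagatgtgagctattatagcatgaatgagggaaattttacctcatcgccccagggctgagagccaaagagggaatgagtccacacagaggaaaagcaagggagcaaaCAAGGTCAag

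None of the 6 was called in D0, D3, D6T- or D9T-. The Abcc4 region had 16 tags in D16S+ and 37 in iPSCs, the Mapt region 15 and 32, and the Fads2 region 14 and 29, while the A230004M16Rik region was called in iPSCs only, with 31 tags. The Immp2l region had 19 tags in D12S+, 47 in D16S+ and 65 in iPSCs, a log2 difference between iPSCs and D12S+ of 1.18 after scaling to equal depth. The intergenic region of chromosome 2 had 10, 18 and 40 tags, a difference of 1.41.

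Depth differed between the libraries. D12S+ held 17613087 tags and iPSCs 26580724, the others between 13213117 and 31714845, and the numbers of regions ran from 35811 (D9T-) to 129532 (D6T-), so that a share also called in another library follows how much was called there. The lowest pileup called was 8 tags in D12S+ and 10 in iPSCs, or 0.454 and 0.376 CPM, where CPM stands for tags scaled to a library of 1000000 tags. Among iPSCs only regions, 7778 (29.1%) had a lower CPM than any region called in D12S+, and among D12S+ only regions none lay under the floor of iPSCs. The CPM of a region can differ between the libraries, so these numbers do not show which regions were undetectable. After scaling by the median difference of common regions, described below, these numbers were 0 for iPSCs only and 2430 (10.8%) for D12S+ only regions. Some regions lay in multi-copy sequence, defined here as at least 50% of the 51-mers around the summit occurring more than once in the genome, although the methods state that ambiguous reads were removed. They made up 7.59% of D12S+ only, 3.53% of iPSCs only and 2.53% of common regions.

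The labels were compared with marker genes. Pluripotency markers were already called in D12S+, with regions at Nanog, Esrrb, Zfp42, Dppa5a and Tdh, and all of these were common with iPSCs. Of the fibroblast markers, Thy1, Col1a1, Twist1 and Prrx1 also had common regions, at 11 to 21 tags in D12S+ and 13 to 27 in iPSCs at the strongest of each, Col1a2 had a region in D12S+ only and Postn had none in either. For SSEA-1, the fucosyltransferase gene Fut9 had 3 common and 2 iPSCs only regions, and Fut4 had no region in D12S+ and 2 in iPSCs. The Fut4 region at the start site, with 21 tags in iPSCs, was however called in every other library. It had 12 tags in D0, 31 in D3, 36 in D6T-, 7 in D9T- and 13 in D16S+. The other Fut4 region, with 11 tags in iPSCs, was also called in D3 and D6T-.

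Most D12S+ only regions had been open in the early cells. Of the 22453, 46.9% were also called in D0, 71.5% in D3 and 83.4% in D6T-, 19489 (86.8%, 95% interval 86.4 to 87.2) in at least 1 of these 3 and 9852 (43.9%) in all 3. Common regions had nearly the same share in any of the 3 early libraries (86.6%), whereas iPSCs only regions had 37.1%. The share of iPSCs only regions is the least stable of these values, since it was 15.2% when the same number of strongest regions was taken from each library. Calls at D0 separated the classes further, at 57.7% of common and 10.8% of iPSCs only regions.

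D16S+, collected 4 days later, held 6381 (28.4%) of the D12S+ only regions, 27949 (87.1%) of the common regions and 6581 (24.6%) of the iPSCs only regions. Hence 20154 of the regions still to be gained by D12S+ were not called in D16S+ either. In the strongest of 3 equal groups of iPSCs only regions by CPM the share in D16S+ was 38.9%, against 14.7% in the weakest. D9T-, the smallest library, held 37.4% of D12S+ only, 54.2% of common and 2.66% of iPSCs only regions.

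**Figure D1:**
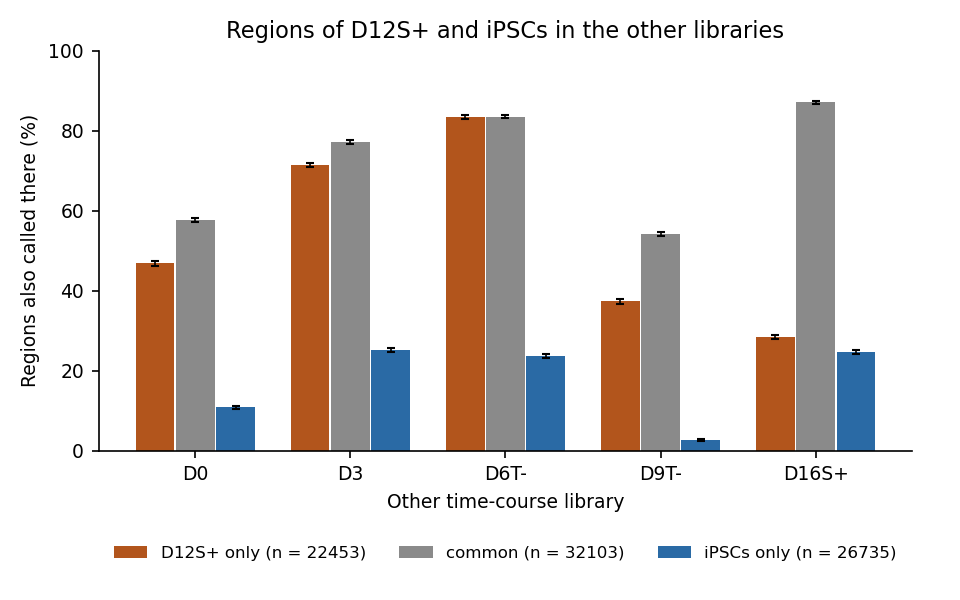
Share of the regions of each class (D12S+ only, common, iPSCs only) that was also called in D0, D3, D6T-, D9T- and D16S+, in percent, with 95% Wilson intervals over regions. D12S+ only regions stand near the common ones in D3 and D6T- and near the iPSCs only ones in D16S+, where they reach 28.4% and 24.6%.

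Divided by when they were first called, 10529 (46.9%) of the D12S+ only regions were called at D0, 8960 (39.9%) at D3 or D6T- but not at D0, and 2964 (13.2%) at none of these. The regions of D0 were called in D16S+ in 18.9% of cases, and those seen at none of the early times in 45.0%. Multi-copy sequence took 14.5% of the last group. The multi-copy D12S+ only regions as a whole were called at D0 in 15.6% and in D16S+ in 68.6% of cases, against 49.5% and 25.1% of the single-copy ones, so multi-copy regions were called less often at D0 and more often at D16S+.

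Of the 26735 iPSCs only regions, 16810 (62.9%) were called in none of D0, D3 and D6T-. Within these, 3502 (13.1% of the class) had appeared by D16S+, and 13308 (49.8%) were called in neither. The 5 highest iPSCs only regions, at 46 to 57 tags, were all called in D16S+ with 10 to 23 tags and in none of the earlier libraries. The highest, at chr3:112042590-112043070, had 57 tags and lay far from any coding gene. One lay in an intron of Gpr98, which encodes an adhesion receptor (chr13:81562994-81563430, 23 tags in D16S+ and 48 in iPSCs), and one 9790 bp from the start of Zbtb41 (chr1:141308858-141309507, 20 and 50 tags).

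The highest D12S+ only regions were of another kind. The top 5 lay on chromosome 6, between 47604158 and 47722525, near Ezh2 and Pdia4, in sequence whose 51-mers were all repeated, at 687, 541, 437, 346 and 231 tags. They were called in D3, D6T- and D16S+ and not in D0, D9T- or iPSCs. Among regions free of repeated 51-mers, one at chr12:105653762-105654371 lay 9151 bp from the start of Serpina3n, a serine protease inhibitor, and had an AP-1 motif. It had 121 tags in D0, 182 in D3, 262 in D6T-, 95 in D9T-, 70 in D12S+ and 28 in D16S+. In CPM these were 3.82, 6.02, 12.2, 7.19, 3.97 and 1.32. The Serpina3n region was thus called in every library before iPSCs, unlike the array on chromosome 6.

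Windows of 100 kb showed the same contrast. The windows with the most D12S+ only regions lay on chromosome 5, at 14900001-15000000 and 15100001-15200000 (46 and 31 regions, 40 and 25 of them multi-copy, with Speer4 genes) and on chromosome 7, at 67000001-67100000 (39 regions, 38 multi-copy). The windows with the most iPSCs only regions held no multi-copy region. They were 2 neighbours on chromosome 10, at 80700001-80800000 and 80800001-80900000, with 28 and 32 regions around genes such as Tjp3, Pip5k1c and Nfic, and 1 on chromosome 8 over Gse1, at 123000001-123100000, with 29. Of the 32 regions in the densest window, 1 was called in D16S+, against 24.6% of all iPSCs only regions. The median in each of these windows was 0.527 CPM, that of the whole class, where the lowest CPM called in D12S+ was 0.454.

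The 3 classes differed in where they lay. The promoter, here 3 kb upstream of a start site, took 35.0% of common, 13.2% of D12S+ only and 15.6% of iPSCs only regions. Genebodies took 38.3%, 45.3% and 49.1%, and intergenic sequence 26.8%, 41.5% and 35.4%. With a stricter peak threshold the promoter shares of D12S+ only and iPSCs only regions were equal (15.7%). The median GC content within 100 bp of the summit was 57.5% in common, 49.5% in D12S+ only and 53.5% in iPSCs only regions, and the regions called in 1 library were narrow, at a median of 272 bp (D12S+ only) and 274 bp (iPSCs only) against 574 bp in common regions.

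Distal regions, those outside promoters, were searched for 10 motifs within 100 bp of the summit, on both strands. The AP-1 motif TGANTCA was present in 31.8% (6208 of 19498) of D12S+ only, 5.82% (1314 of 22571) of iPSCs only and 9.24% of common distal regions, against 15.0% of all distal regions of the 3 classes. The share in D12S+ only regions was near that of all distal regions of the earlier libraries. These had 30.9% in D0, 27.0% in D3, 36.7% in D6T- and 32.3% in D9T-, against 20.1% in D12S+, 7.34% in D16S+ and 6.82% in iPSCs. The gap between D12S+ only and iPSCs only was present at equal GC content, with 37.7% against 7.52% at a GC content of 40 to 45% and 8.72% against 1.97% at 60 to 70%. Within the D12S+ only class, AP-1 motifs were found at 39.0% of distal regions not called in D16S+ and at 12.2% of those called there. By time of first call, 48.9% of the regions of D0, 19.9% of those of D3 or D6T- and 5.82% of those seen at none of the early times had it. In the 8538 regions called at D0 and not in D16S+, the share was 54.3% of the distal ones (4183 of 7706, interval 53.2 to 55.4). The 4 lost regions printed first are of this group, and were chosen for their motif.

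The Esrrb motif CAAGGTCA, which other orphan nuclear receptors such as Nr5a2 also recognise, had the opposite order. It was found in 3.01% (679 of 22571) of iPSCs only, 1.75% of common and 1.12% (219 of 19498) of D12S+ only distal regions, against 2.01% of all. Among iPSCs only regions it was found in 3.64% of those called at none of D0, D3 and D6T- and in 1.54% of those called at D0. Common regions called at none of the early times had a share of 4.15%. The common regions at least 2-fold higher in iPSCs had 7.64% (12 of 157 distal regions, interval 4.43 to 12.9), and those at least 2-fold lower 0.834%.

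Other motifs differed by smaller ratios between D12S+ only and iPSCs only regions. Runx (AACCACA) was found in 6.32% of D12S+ only and 3.80% of iPSCs only distal regions (4.47% of all), TEAD (ACATTCC) in 5.69% and 4.16% (4.63% of all), Sox (CATTGTT) in 4.37% and 3.36% (3.60% of all) and the octamer ATGCAAA, bound by Oct4, in 5.35% and 4.34% (4.81% of all). Klf (GGGNGTGG) was more frequent in iPSCs only than in D12S+ only regions, at 13.5% and 10.1% (12.8% of all), as were Ets (CCGGAAG) at 2.84% and 1.55% (2.95% of all) and NF-Y (CCAATCA) at 3.67% and 2.55% (3.79% of all). The core of the CTCF motif was about equal, at 3.42% and 3.44%, and highest in common regions (6.99%, 4.61% of all). Ets, NF-Y and Klf were also highest in common distal regions (912, 1058 and 3048 of 20881). Thus the octamer, the site of one of the 4 introduced factors, was not more frequent in the regions still to be gained than in those still to be lost. This comparison was not made at equal GC content, of which the class medians were 53.5% in iPSCs only and 49.5% in D12S+ only regions. These matches are letters in a window and say nothing of binding.

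**Figure D2:**
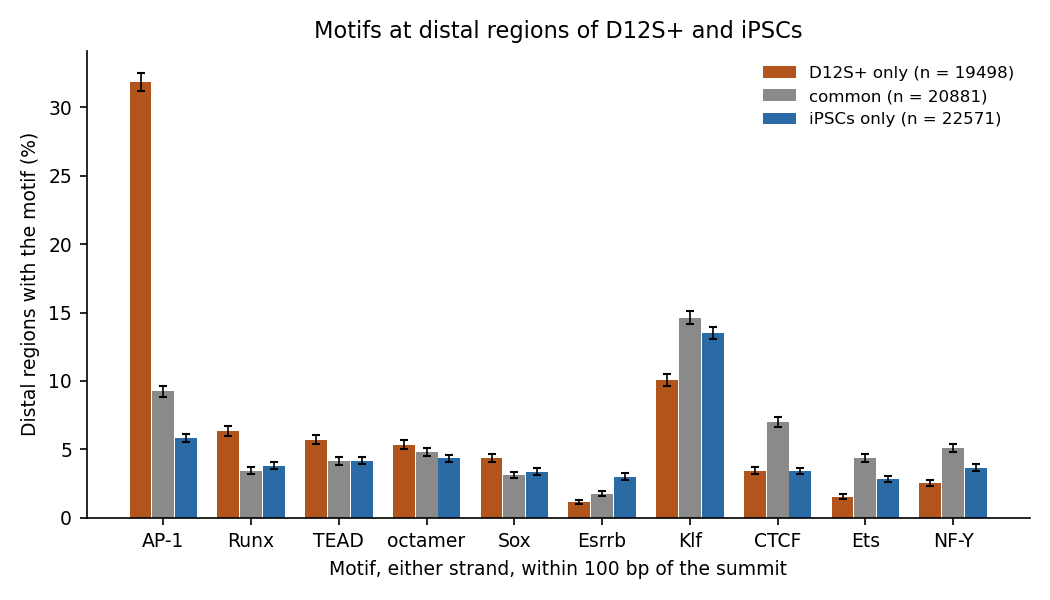
Share of distal regions with each of 10 motifs on either strand within 100 bp of the summit, in percent, by class, with 95% Wilson intervals over regions. The AP-1 bars range from 5.82% in iPSCs only to 31.8% in D12S+ only regions, and the Esrrb bars from 1.12% in D12S+ only to 3.01% in iPSCs only regions.

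At common regions the highest pileup was scaled by the total tags of the library, to CPM. The median log2 difference, iPSCs minus D12S+, was -0.59 (quartiles -0.99 and -0.15), and 5658 (17.6%) of the 32103 regions were above 0. At least 2-fold lower in iPSCs were 7900 regions (24.6%), and at least 2-fold higher 173 (0.539%). The regions nearest to these limits had log2 differences of -1.00005 and -0.999725 on the lower side and 1.00351 and 0.99123 on the upper side. The total tags used for scaling include those outside called regions. Centred on the median of common promoter regions instead, 7.84% were at least 2-fold higher and 2.76% at least 2-fold lower. The counting interval of a single region lay wholly past 2-fold lower in 879 cases (2.74%) and wholly past 2-fold higher in 4.

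The shift was found between D16S+ and iPSCs rather than between day 12 and day 16. Over the 27949 common regions also called in D16S+, the median difference of D16S+ minus D12S+ was -0.03 and of iPSCs minus D16S+ -0.58. The iPSC library was also the deepest of these, at 26580724 tags against 17613087 in D12S+ and 21172835 in D16S+, and the part of depth in the shift was not tested. Promoters had a median of -0.77 between iPSCs and D12S+ and distal regions -0.46. The median of common promoter regions was 1.53 CPM in D12S+ and 0.941 in iPSCs, and that of distal regions 0.908 and 0.715. From D12S+ to D16S+, over those also called in D16S+, promoter regions had a median difference of -0.04 and distal regions one of -0.02. Common regions already called at D0 had a median of -0.80 and those of D3 or D6T- one of -0.35. Distal common regions with the Esrrb motif had a median of -0.22, those with AP-1 -0.59 and those with Ets -0.73.

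**Figure D3:**
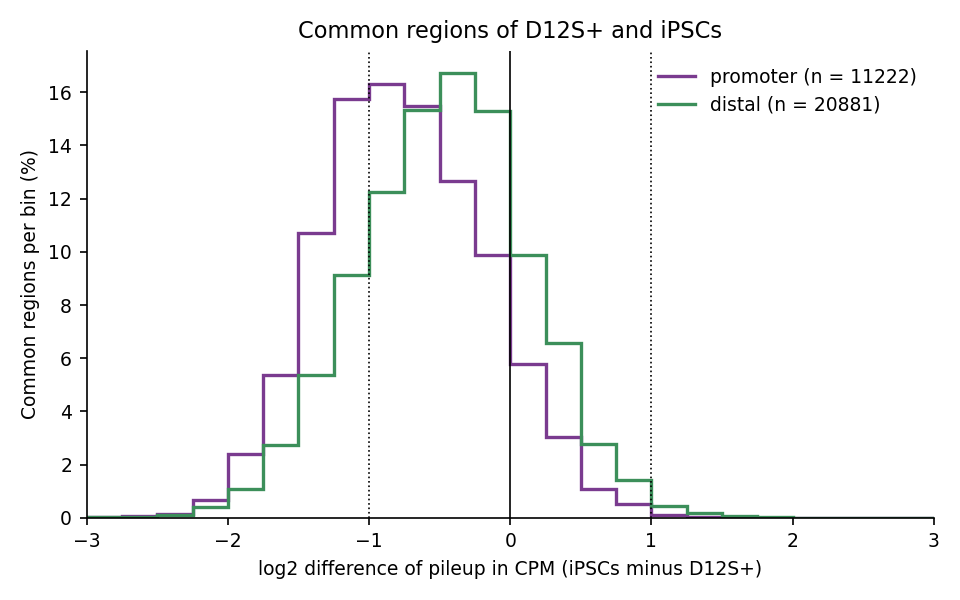
Distribution of the log2 difference in highest pileup (CPM), iPSCs minus D12S+, over common promoter and distal regions, as a percentage of regions per bin; the solid line marks 0 and the dotted lines 2-fold. Both curves peak below 0, and the promoter curve, with a median of -0.77, lies to the left of the distal one, with a median of -0.46.

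The 173 regions at least 2-fold higher in iPSCs and the 7900 at least 2-fold lower differed in location, GC content and calls at D0. A common region had to be called in both libraries. A region 2-fold lower in iPSCs thus had to be strong in D12S+, and one 2-fold higher had to be strong in iPSCs. The part of this limit in the contrast was not tested. Of the higher ones 112 (64.7%) were intergenic and 16 (9.25%) in promoters, their median GC content was 47.5%, 11.6% were called in D0 and 96.0% in D16S+. Of the lower ones 49.9% lay in promoters, the median GC content was 61.75%, 84.4% were called in D0 and 95.2% in D16S+. The largest increase was in an intron of Eftud1 (chr7:89919500-89920666), from 13 to 84 tags, a 4.28-fold higher CPM (95% counting interval of the log2 difference 1.25 to 3.07). Next were an intergenic region 44.4 kb from Tbx20 (chr9:24622918-24623361, 8 and 49 tags, 2.02), one at chr5:33071250-33072039 (9 and 51 tags, 1.91), an intron of Ncam2, a neural adhesion molecule (chr16:81481169-81481741, 13 and 73 tags, 1.90) and chr7:59987468-59987996 (10 and 56 tags, 1.89). In D16S+ these 4 regions had 23, 26, 37 and 30 tags in the same order, or 1.09, 1.23, 1.75 and 1.42 CPM, between the values of D12S+ and iPSCs. The Eftud1 region had 15 tags in D16S+, 0.708 CPM against 0.738 in D12S+. The Tbx20 region and the last one were called in no library before D12S+, whereas the region of chromosome 5 had 53 tags in D0 and 48 in D3. The largest decrease, from 234 to 16 tags at chr1:173009195-173012347 (-4.46), and 3 of the 4 that followed it lay in sequence with at least 50% repeated 51-mers, and the remaining one in sequence with 26.7%.

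Naive pluripotency genes carried many regions still to be gained. The list of 15 genes had 66 regions in genebodies and promoters, of which 33 were common, 4 D12S+ only and 29 (43.9%, interval 32.6 to 55.9) iPSCs only, whereas over all genes 32% of regions were iPSCs only and 24.3% D12S+ only. Of the 29, 7 were called in D16S+ and 3 in D0, D3 or D6T-, where 24.6% and 37.1% of all iPSCs only regions were, and 10 of the 15 genes had at least 1. The share was 38.3% without Esrrb. The 33 common regions had a median log2 difference of -0.12, against -0.59 over all common regions, and 15 were above 0, but the counting interval of 1 lay above 0 and those of 7 below. Relative to the median of all common regions, 26 of the 33 were higher, the intervals of 8 lay wholly above it and those of 3 wholly below, against 5.04% and 10.6% of all common regions.

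Esrrb, which encodes an orphan nuclear receptor of the naive state, had 8 common and 11 iPSCs only regions, all of the latter uncalled in D0, D3 and D6T-. The iPSCs only ones had 10 to 23 tags, and with the stricter peak threshold 6 were counted. One of them, over an exon at chr12:87810871-87811465, had 22 tags in D16S+ and 23 in iPSCs. The 8 common ones had 11 to 25 tags in D12S+ and 14 to 34 in iPSCs, with log2 differences between -0.52 and 0.27.

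Zfp42 (Rex1), a zinc finger gene used as a naive marker, had a common promoter region with 23 tags in D12S+, 61 in D16S+ and 40 in iPSCs (0.20, interval -0.57 to 1.01), and 3 iPSCs only regions with 13, 26 and 14 tags. Tcl1, a cofactor of Akt kinase, had no region in D12S+ and 2 promoter regions in iPSCs with 16 and 27 tags, the second with 14 in D16S+. Tfcp2l1, which maintains the naive state downstream of LIF, had 3 common regions with 17, 15 and 24 tags in D12S+ and 36, 29 and 59 in iPSCs, and 3 iPSCs only regions with 13, 24 and 18. Nr5a2, another orphan nuclear receptor, had 2 common regions (17 and 26 tags, 13 and 33 tags) and 3 iPSCs only regions with 15, 20 and 13. These 4 genes shared the pattern of 2 or 3 regions still missing at day 12.

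Fgf4, a growth factor gene that is a target of Oct4 and Sox2, had the one common region of the list whose interval lay above 0. It lies upstream of the start site (chr7:152046797-152047651) and was uncalled up to D9T-, with 9 tags in D12S+, 31 in D16S+ and 32 in iPSCs, a log2 difference of 1.24 (interval 0.14 to 2.49). A second common region over an exon had 10 and 25 tags (0.73, interval -0.38 to 1.95), and 2 iPSCs only regions had 12 and 16. Under the stricter threshold no region of Fgf4 was common. Nanog differed from it, with 1 common region (chr6:122656972-122657634) at 15 tags in D12S+, 28 in D16S+ and 16 in iPSCs (-0.50, interval -1.61 to 0.62). Its promoter, in the 200 bases at chr6:122657307-122657506 that end at its first annotated start, and the 150 bases around the Fgf4 summit, at chr7:152047107-152047256, show an octamer and a Klf match in the former and an NF-Y match in the latter.
Nanog promoter: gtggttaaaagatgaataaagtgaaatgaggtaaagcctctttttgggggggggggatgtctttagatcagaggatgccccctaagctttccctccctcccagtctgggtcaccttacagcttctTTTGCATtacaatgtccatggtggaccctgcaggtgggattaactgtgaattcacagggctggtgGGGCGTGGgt
Fgf4 upstream: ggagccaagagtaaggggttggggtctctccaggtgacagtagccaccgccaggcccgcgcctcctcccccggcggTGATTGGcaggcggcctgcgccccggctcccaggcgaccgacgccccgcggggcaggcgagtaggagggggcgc

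At least 2-fold lower in iPSCs were 4 of the 33 common regions of the list, at Tbx3, Klf5, Klf2 and Sall4, against 24.6% of all common regions. Tbx3, a T-box factor with roles outside pluripotency too, had 73 tags in D0, 135 in D3, 176 in D6T-, 43 in D9T-, 81 in D12S+, 56 in D16S+ and 40 in iPSCs at its start site (-1.61, interval -2.20 to -1.05). Klf5, also an epithelial factor, had a region with 116 and 71 tags (-1.30) and 1 D12S+ only region of 11 tags. Klf2 had promoter regions with 35 and 41 tags and with 80 and 50 tags (-1.27), and 1 iPSCs only region of 17. Tdh, Sall4, Stat3 and Lifr had regions in both directions. Tdh, a threonine dehydrogenase of mouse pluripotent cells, had 33 and 27 (-0.88), 8 and 21 (0.80), and 14 and 18 tags (-0.23). Sall4 had 3 common regions, with differences of -0.40, 0.26 and -1.20, 2 D12S+ only and 2 iPSCs only regions. Stat3, the signal transducer of LIF, had 13 and 21 tags (0.10) and 69 and 56 tags (-0.89), and the receptor gene Lifr had a common region with 26 and 20 tags, a D12S+ only region of 18 and an iPSCs only region of 16. Prdm14 had 1 common region, with 11 and 12 tags.

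**Figure D4:**
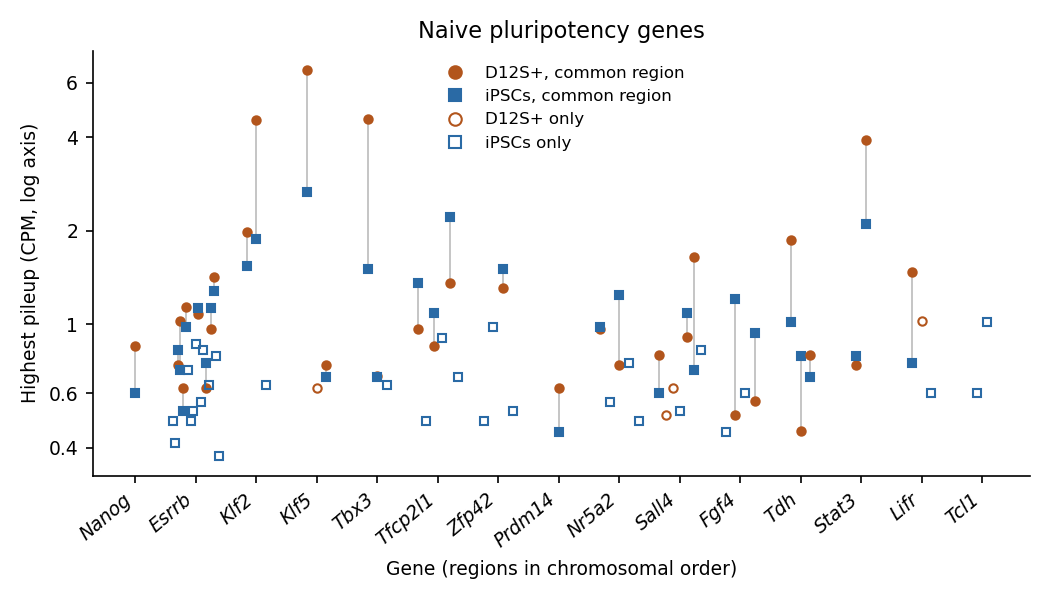
Highest pileup in CPM, on a log axis, of every region of the 15 naive pluripotency genes in D12S+ and iPSCs; filled symbols joined by a line are common regions and open symbols are regions called in 1 library. The 29 open squares are the iPSCs only regions, 11 of them at Esrrb, and the widest drops from D12S+ to iPSCs are at Tbx3, Klf5 and Klf2.

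The later pluripotency genes had 67 regions, of which 27 were common, 13 D12S+ only and 27 (40.3%, interval 29.4 to 52.3) iPSCs only. Over all genes 32% of regions were iPSCs only, a share within this interval. Lin28a, an RNA-binding inhibitor of let-7 processing, had 7 iPSCs only regions with 11 to 19 tags, 1 common (13 and 12 tags) and 1 D12S+ only region of 15. Dppa2 (24 and 17 tags) and Dppa4 (16 tags), paired chromatin proteins of early embryos, had iPSCs only regions and no others. Dppa3 had 19 and 38 tags at a common promoter region and an iPSCs only region of 14, and Dppa5a had 11 and 19 tags and an iPSCs only region of 23. Primed and formative genes, such as Otx2 and Lef1, had 11 common, 3 D12S+ only and 14 (50%, interval 32.6 to 67.4) iPSCs only regions. For the introduced factors, regions over exons were left out since the retroviral copies hold them. Outside exons, Myc had 1 common and 1 D12S+ only region, and Pou5f1, Sox2 and Klf4 had none.

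Germline genes, which are held silent by promoter DNA methylation in somatic cells, had 17 regions, of which 7 were common, 1 D12S+ only and 9 iPSCs only. Of the 9, 7 lay in promoters and none was called in D0, D3 or D6T-, against 15.6% and 37.1% of all iPSCs only regions. Ddx4 (16 tags), Mael (16), Sycp1 (15), Sycp3 (11), Tdrd1 (12) and Hormad1 (19) had iPSCs only regions and no others, of which Mael and Sycp3 were called in D16S+ with 20 and 13 tags. The regions of Sycp3 and Tdrd1, at 0.414 and 0.451 CPM, lay under the lowest CPM called in D12S+ (0.454). Dazl and Tdrkh had common regions that were present from D0 and lower in iPSCs (49 and 36 tags, -1.04, and 64 and 45 tags, -1.10). The DNA methylation genes were close to the background, with 29 common, 16 D12S+ only and 22 iPSCs only regions. Tet1, a 5-methylcytosine dioxygenase, had 3, 2 and 7 of these. Of its 7 iPSCs only regions 6 were uncalled in D0, D3 and D6T-, where 62.9% of all iPSCs only regions were uncalled.

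Fibroblast genes had the largest share still to be lost among the lists with at least 10 regions. Of 54 regions 19 were common, 20 (37.0%, interval 25.4 to 50.4) D12S+ only and 15 iPSCs only, and 19 of the 20 had been called in D0, D3 or D6T-, 12 of them in D0, while 6 were called in D16S+. These counts were close to the background, since 11647 of the 13204 D12S+ only regions in the spans of all genes had been called early, and 46.9% of all D12S+ only regions were called in D0 and 28.4% in D16S+. The 19 common regions had the median of all common regions (-0.59), and none was above 0, where 17.6% of all were. Col1a2, Col3a1, Lox, Dcn and S100a4 had regions in D12S+ and none in iPSCs. S100a4, also called fibroblast-specific protein, had 3 promoter regions, the strongest of which (chr3:90408276-90408763) had 33 tags in D0, 67 in D3, 84 in D6T-, 22 in D9T-, 29 in D12S+ and 13 in D16S+. Dcn, which encodes the proteoglycan decorin, had 15, 27, 31, 9, 18 and 17 tags in the same order. Ddr2, a collagen receptor, had 6 D12S+ only regions with 10 to 15 tags, none called in D16S+. Beside them it had a common region with 28 tags in both libraries before scaling for depth. One of the 6 (chr1:171989595-171989955) had 25, 50, 51, 9 and 13 tags from D0 to D12S+.

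The D12S+ only regions of fibroblast genes had 9 to 29 tags, around the median of 12 tags (0.681 CPM) of all D12S+ only regions. Fbn1 had D12S+ only regions of 13 and 11 tags, Vim had one of 10 beside a genebody region with 42 and 25 tags (-1.34, interval -2.12 to -0.59), and Col1a2 and Col3a1 had one of 13 each. Col1a1, Thy1 and Pdgfra had common regions with 21 and 27, 11 and 13, and 18 and 18 tags. Regions in iPSCs only were found at Col5a1 (3), Col5a2 (2) and Col6a2 (2), and the region of Lum, in iPSCs only, was multi-copy.

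Mesenchymal transcription factors had 11 common, 9 D12S+ only and 8 iPSCs only regions, and 8 of the 9 had been called early, close to the share over all genes. Twist2, a repressor of epithelial genes, had D12S+ only regions of 21 and 11 tags, both with an AP-1 motif. The first (chr1:93713209-93713687) had 42 tags in D0, 60 in D3, 70 in D6T-, 12 in D9T- and 13 in D16S+. Zeb2 had 3 D12S+ only regions (13, 13 and 8 tags), Prrx1 had 2 (12 tags each), and Snai1 had a common promoter region with 39 and 28 tags (-1.07). Twist1 had common genebody regions with 18 and 23 tags (-0.24) and with 8 and 11 (-0.13), and a D12S+ only promoter region (chr12:34640825-34641051) of 11 tags that was not called in D16S+.

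The TGF-beta and TEAD genes had 53 common, 26 D12S+ only and 31 iPSCs only regions. All 26 of the D12S+ only regions had been called in D0, D3 or D6T-, against the 11647 of 13204 given above. Tgfbr2, the type II receptor, had 5 D12S+ only regions (13, 13, 18, 9 and 12 tags), 3 of them with AP-1 motifs and none called in D16S+. Of all D12S+ only regions 28.4% were called in D16S+, and 31.8% of the distal ones had the AP-1 motif. The strongest (chr9:116061918-116062431) had 37, 44, 78, 11 and 18 tags from D0 to D12S+. Its promoter region was common, with 24 and 14 tags (-1.37, interval -2.44 to -0.36). Tgfbr1 had a D12S+ only intron region of 21 tags with an AP-1 motif and a common promoter region with 80 and 49 tags. Smad3, their signal transducer, had 5 D12S+ only, 4 common and 4 iPSCs only regions.

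The genes of AP-1 itself were open in both states. Of 30 regions 20 were common, with a median log2 difference of -0.87, 4 were D12S+ only and 6 iPSCs only. Of the 20, 8 were at least 2-fold lower in iPSCs, where 24.6% of all common regions were, and the intervals of 12 lay below 0. Atf3, a stress-induced family member, had the lowest value, with 54 tags in D0, 134 in D3, 160 in D6T-, 36 in D9T-, 80 in D12S+, 64 in D16S+ and 28 in iPSCs (-2.11, interval -2.78 to -1.47). Fos had 35 and 16 tags (-1.72), Junb 30 and 15 (-1.59) and Jun 106 and 70 (-1.19). Housekeeping genes, however, had a lower median still (-1.14), with 14 of 22 common regions at least 2-fold lower and none above 0. Gapdh had 72 and 30 tags (-1.86), and Actb had a region with 44 and 43. The median of the AP-1 genes thus lay between that of housekeeping genes and that of all common regions.

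Epithelial genes, which are engaged early in reprogramming, were close to the background, with 23 common, 12 D12S+ only and 17 iPSCs only regions. Cdh1 (E-cadherin) had 24 and 31 tags at its promoter, and Esrp1, an epithelial splicing regulator, 55 and 25 tags (-1.73). Epcam had 27 and 15 tags at both of its common regions (-1.44). Cd44, a surface marker lost during reprogramming, had 2 common regions and 1 iPSCs only region of 20 tags. It also had 4 D12S+ only regions with 23, 11, 10 and 20 tags, all called in D3 or D6T-. Of all D12S+ only regions 86.8% were called in D0, D3 or D6T-.

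Markers of other cell types were not absent from iPSCs. Endoderm and mesoderm genes had 12 common, 2 D12S+ only and 16 iPSCs only regions, trophoblast genes 18, 5 and 14, neural genes 13, 2 and 12, and endothelial and blood genes 10, 7 and 11. The first included 2 iPSCs only regions each of Gata4, Foxa2 and Sox7. Their part in the results above was not tested. The naive pluripotency list, at 43.9% iPSCs only, thus did not exceed the endoderm and mesoderm list (53.3%) or the neural list (44.4%), and with 27 to 66 regions a list the intervals of these shares overlap. The lists differed in earlier calls of their iPSCs only regions. In D0, D3 or D6T-, 9 of the 16 endoderm and mesoderm and 7 of the 12 neural ones had been called. The same held for 2 of the 14 trophoblast, 4 of the 11 endothelial and blood and 3 of the 29 naive ones, against 37.1% of all.

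**Figure D5:**
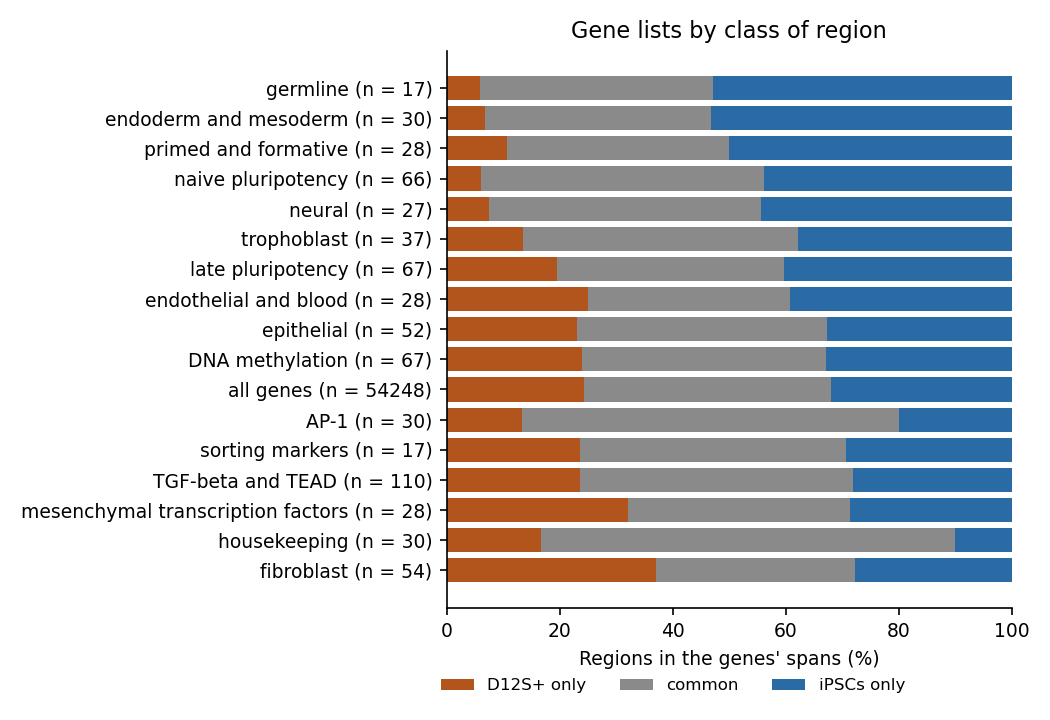
Share of the regions in the spans of each gene list that were common, D12S+ only or iPSCs only, in percent, ordered by the excess of iPSCs only over D12S+ only regions; n is the number of regions, and lists with under 10 regions are left out. The fibroblast list has the largest D12S+ only share (37.0%), and germline and endoderm and mesoderm genes have the largest iPSCs only shares (52.9% and 53.3%).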

How the data were processed

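The ATAC-Seq peak files of the 7 time-course libraries were used (no column of another series was present, and the 2 siRNA libraries were not used). The authors mapped 51 bp reads to mm9 with STAR, removed duplicates with Picard and used MACS2 2.1.0.20151222 for peak calling, with neither control nor local background, at a q-value cutoff of 0.05, with tags extended to 200 bp. The deposited pileup is a signal: how many extended tags covered a summit, without scaling for depth. The deposited fold enrichment is a ratio to the genome-wide background, and the deposited significance is −log10 of the q-value. The last was used to rank or filter peaks and the fold enrichment as an alternative to the pileup.

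Regions were compared as described above, and a pileup was scaled to a library of 1000000 tags (CPM). Genes came from GENCODE vM1 on mm9, a gene's span being its genebody with 3 kb upstream, and 189 of 190 listed genes were matched. Motifs and GC content were read within 200 bp windows centred on the summit. Intervals are 95% Wilson for shares and exact Clopper-Pearson for ratios of pileups. They cover counting error only, since tags carried no molecular identifiers, the highest summit is a chosen maximum and regions are not independent. Named genes were those of 17 lists with a region in 1 library only or a 2-fold difference, up to 8 a list by the higher CPM, and all members of the naive pluripotency list and sorting markers. Further regions named were the 5 highest of each class, the 5 largest changes in each direction with at least 20 tags in the higher library and the 3 densest windows of each class. A few more genes of these lists, and the printed sequences, were chosen after their values were seen. Members, lists and tests were chosen with earlier results of these data known. Functions were tested on simulated data. The software was Python 3.11.15 (pysam 0.24.0, scipy 1.17.1, pandas 2.3.3, numpy 2.4.6, matplotlib 3.10.9).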

Additional observations from a re-analysis of the deposited data

How the results depend on the processing

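Each of the values compared was recomputed under the alternatives, and the causes of the changes were not tested. The share of D12S+ regions that were common (59.7%) was 57.3% with a stricter peak threshold (−log10 q of at least 5), 58.3% with the same number of strongest regions per library, 57.7% with an overlap of at least 50% of the shorter region and 61.0% without multi-copy regions, an alternative added after seeing the data. The share of iPSC regions that were common (55.8%) was 64.6%, 59.0% and 53.8% under the first 3, so that the order of both shares turned under the first pair. In the same order, D12S+ only regions were called in D0, D3 or D6T- at 85.2%, 70.5% and 85.3% (87.8% without multi-copy regions) and in D16S+ at 34.6%, 33.9% and 27.8% (25.1%). The iPSCs only regions were called in D16S+ at 33.7%, 32.8% and 23.1% (23.8%) and in D0, D3 or D6T- at 32.7%, 15.2% and 33.7%.

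Of the common regions, the share at least 2-fold higher in iPSCs was 0.900% by fold enrichment, 0.0573% with at least 20 tags in both libraries and 7.84% when centred on promoters. The share at least 2-fold lower was 14.6%, 40.1% and 2.76% under these, and 25.9% for summits within 100 bp. Promoters of 1 kb took 9.24% of iPSCs only and 7.72% of D12S+ only regions, and the latter had 15.7% with the stricter threshold and 13.8% with equal numbers. AP-1 in D12S+ only regions was 30.1% with the stricter threshold, 33.8% without multi-copy regions and 40.6% in a 400 bp window, where AP-1 in iPSCs only regions was 10.9% and the octamer was 9.58% of D12S+ only and 7.45% of iPSCs only regions. The octamer in iPSCs only regions was 5.22% with the stricter threshold and 4.69% with equal numbers. The Esrrb motif in iPSCs only regions was 3.41% with the stricter threshold and 5.09% in a 400 bp window (2.30% of D12S+ only regions there). The median difference at common regions stayed within its quartiles, at -0.41 by fold enrichment and -0.87 with at least 20 tags. Of the 17 lists 2 were recomputed. The iPSCs only share of naive pluripotency genes and the D12S+ only share of fibroblast genes moved by less than their intervals, but with the stricter threshold fibroblast genes had 11 common, 14 D12S+ only and 4 iPSCs only regions, and naive pluripotency genes 26, 1 and 21, so that the iPSCs only share of the former and the D12S+ only share of the latter fell below their intervals. Region numbers of single genes of both lists changed under some settings. No paired analysis was possible because each condition had 1 library, and for the same reason no replicate could be left out. The lowest pileup called, 8 to 10 tags in the libraries compared, limits what could be detected.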
